A study of Caenorhabditis elegans with 6 samples.

Results

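The genes described here encode the core proteins of *C. elegans* P granules, the germ granules that lie at the nuclear pores of germ cells. They were chosen by name and comprise 3 *pgl* genes (*pgl-1*, *pgl-2* and *pgl-3*), 4 *glh* genes (*glh-1* to *glh-4*) and 3 *meg* genes (*meg-1*, *meg-3* and *meg-4*), that is 10 of the 22185 genes and of the 22336 loci listed for each library. All 10 were found under their Ensembl gene names. What was measured at each of them was not its mRNA but the number of 22G-RNAs directed against it, and whether this number differed in animals without LOTR-1, a germ granule protein with LOTUS and Tudor domains, was asked paralog by paralog.

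The groups were 3 libraries of *lotr-1(sam117)* and 3 libraries of wild-type N2, all from whole gravid adults collected 65 hours after synchronised L1 larvae were plated on OP50 bacteria. In *lotr-1(sam117)* the whole coding sequence of *lotr-1* is deleted in frame. A 3xFLAG::GFP tag, which the study had placed at the N-terminus of LOTR-1, remains. The mutant strain was RFK1256, and its libraries represent this allele alone. RNA of both genotypes was treated with the pyrophosphohydrolase RppH, so that small RNAs with a 5' triphosphate could be ligated to adapters. No source used here says that the replicates came from separate cultures, so p-values measure the spread between these samples, which may be technical.

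P granules concentrate RNA and many small RNA factors. PGL-1 and PGL-3 are scaffold proteins of the granules and are present through most of germline development, and PGL-2 is their paralog without the RGG box. GLH-1 to GLH-4 are DEAD-box RNA helicases related to Vasa, a conserved germline helicase. MEG-3 and MEG-4 are intrinsically disordered proteins that coat the PGL phase of the granules in early embryos, and MEG-1 is a related factor of embryonic germ granules. 22G-RNAs, small RNAs of 22 bases with a G at the 5' end, are made by RNA-dependent RNA polymerases, which use a target transcript as template, so they are antisense to it. They are bound by Argonautes of the WAGO group, most of which silence their targets, or by CSR-1, whose targets are mostly genes expressed in the germline.

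Libraries held 3368618 to 3810890 counts in *lotr-1(sam117)* and 3150716 to 3829101 counts in wild-type, sums of the listed loci that say nothing of other small RNAs. A count of 3, used as the detection floor, was between 7.83e-05% and 9.52e-05% of a library, which covers counting error only. The *lotr-1* gene had 40, 49 and 60 counts in *lotr-1(sam117)* libraries and 477, 522 and 563 counts in wild-type libraries (log2 fold change -2.62, SE 0.165, adjusted p = 1.99e-21 from DESeq2 against 2-fold). Each *lotr-1(sam117)* library was thus below each wild-type library, which goes with the genotypes that the labels give. The counts nevertheless stayed above the detection floor in every mutant library, and counts inside and outside the deleted part were not separated here. Although totals were similar, DESeq2 size factors, which take the typical locus as unchanged, were 0.737 to 0.839 in *lotr-1(sam117)* and 1.18 to 1.46 in wild-type. Scaling libraries to equal totals instead lowered every fold change by about the same amount, so that the median log2 fold change over the tested loci, those that received an adjusted p from DESeq2, was 0.08 with size factors and -0.71 with equal totals. The counts do not tell which scaling reflects amounts per animal. Fold changes of the 10 genes and sums of the families are therefore given on both scales, with ratios between genes of the same library, which need no scaling.

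Raw counts of the PGL and GLH genes were lower in all *lotr-1(sam117)* libraries than in any wild-type library, whereas those of *meg-3* and *meg-4* were higher. Thus 7 of the 10 genes were lower without overlap between genotypes, 2 were higher without overlap and 1, *meg-1*, overlapped. Over the whole series, 50.5% of the tested loci were lower without overlap in raw counts and 11.4% were higher. In CPM, the counts of a library scaled to a common total, the same division of 7, 2 and 1 was seen, with 53.9% of the tested loci lower and 13.0% higher. Lower counts of the PGL and GLH genes were thus shared with a large part of all loci, and *meg-3* and *meg-4* were on the less frequent side.

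**Figure D1:**
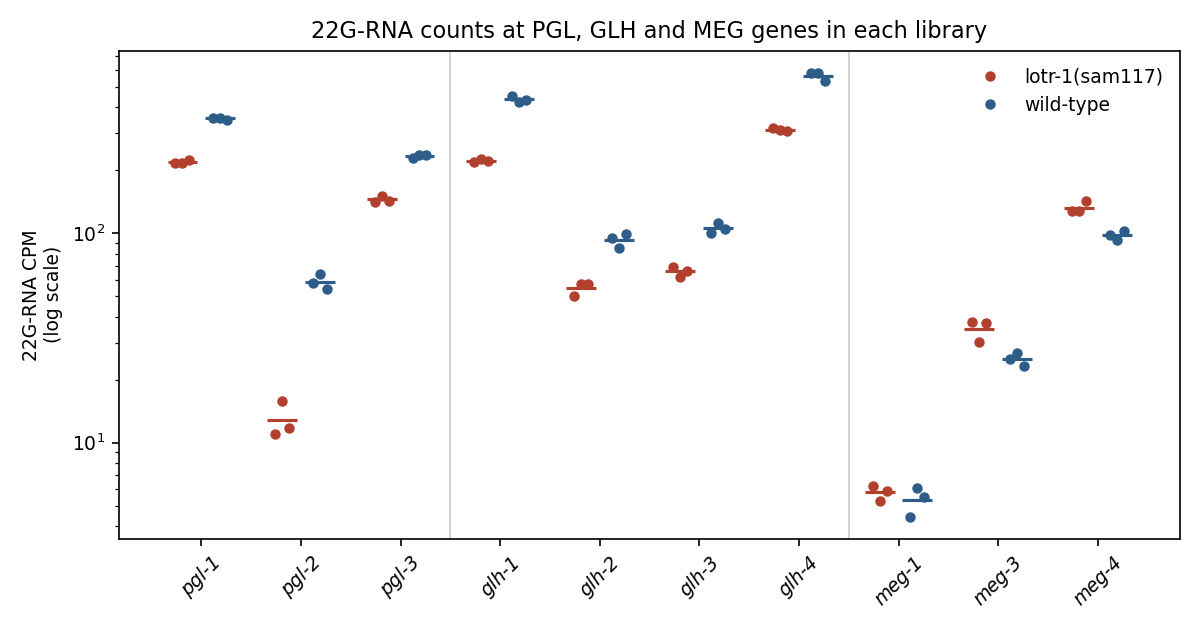
CPM of 22G-RNAs (counts scaled to a common library total, log scale) at each PGL, GLH and MEG gene, with 1 point per library and a line at the mean of 3 libraries, for *lotr-1(sam117)* (left of each pair) and wild-type (right). The *pgl-2* points lie farthest apart, at 10.98 to 15.7 in *lotr-1(sam117)* and 54.3 to 63.9 in wild-type, and *meg-3* and *meg-4* are the genes whose *lotr-1(sam117)* points all lie above wild-type.

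When the libraries were scaled by size factors, 0 of the 10 genes changed more than 2-fold in either direction in DESeq2 (adjusted p below 0.1), against 8.15% of the tested loci higher and 8.14% lower, together 16.3%. At an unadjusted p below 0.05 the DESeq2 test against 2-fold gave 1 gene higher, *meg-4*, and 0 lower. The share of all tested loci at this unadjusted limit was not computed, so that count has no background. The edgeR test against 2-fold called 2 genes higher, *meg-3* and *meg-4*, and 1 lower, *pgl-2*, where it called 14.04% of 8927 tested loci higher and 15.3% lower. Smaller changes were tested against no change. Here DESeq2 called 3 of the 10 higher, the 3 MEG genes, and 2 lower, *pgl-2* and *glh-1*, where 20.4% of the tested loci were called higher and 22.7% lower, together 43.1%. The share of members called was therefore near the background in both directions. The median log2 fold change of the 10 genes was 0.10, against 0.08 over all tested loci. With equal totals 2 of the 10 were called higher (*meg-3* and *meg-4*, background 9.22%) and 7 lower (all PGL and GLH genes, background 46.7%). Past 2-fold, 1, *pgl-2*, was lower (background 20.0%) and 0 were higher (background 4.26%). At an unadjusted p below 0.05 in that test 0 were higher as well, again without a background.

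**Figure D2:**
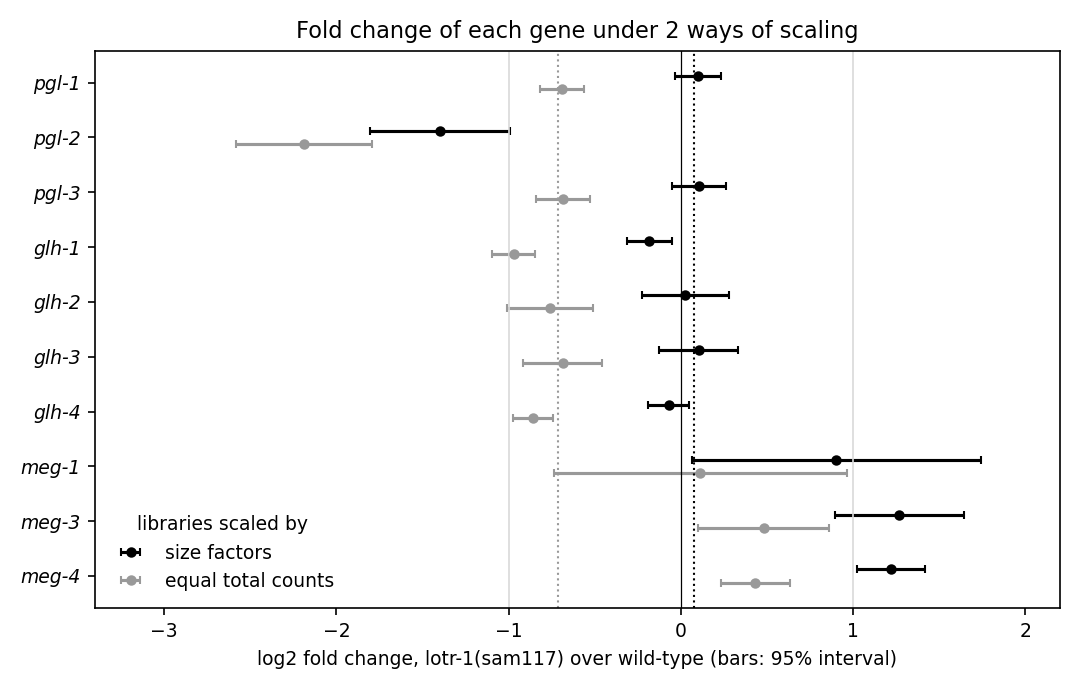
Log2 fold change of each gene, *lotr-1(sam117)* over wild-type, with its 95% interval from DESeq2, when libraries were scaled by size factors (black) or to equal total counts (grey); dotted lines mark the median of all tested loci on each scale (0.08 and -0.71), and thin lines mark 2-fold. The grey points lie to the left of the black ones by a nearly constant step, *pgl-2* lies left of the median on both scales, and the 3 MEG genes lie right of it on both.

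Among the PGL genes, *pgl-2* stood apart from its paralogs. *pgl-2* (WBGene00003993, chromosome III, 8670543 to 8675435, minus strand, WBcel235) has 2007 bases of exon in 8 blocks. It had 37, 60 and 40 counts in *lotr-1(sam117)* libraries and 183, 221 and 208 counts in wild-type libraries. Each mutant library was thus below each wild-type library, and replicate 2 was the highest of its genotype in both. Normalized counts, that is counts divided by size factors, were 58.3 ± 11.5 in *lotr-1(sam117)* and 155 ± 11.9 in wild-type (SD, n = 3 each). The log2 fold change was -1.40 (SE 0.209, 95% interval -1.81 to -0.99), and *pgl-2* fell against no change (adjusted p = 1.41e-10 from DESeq2) but not past 2-fold (DESeq2 adjusted p = 0.298). With equal totals the log2 fold change was -2.19, and *pgl-2* fell past 2-fold (DESeq2 adjusted p = 3.73e-08). Along 139 bases of exon *pgl-2* overlaps *fli-1* on the same strand, where reads of the genes cannot be told apart. *fli-1*, named for a flightless family of actin-binding proteins, had 156, 155 and 136 counts in *lotr-1(sam117)* libraries and 306, 317 and 402 counts in wild-type libraries, a log2 fold change of -0.42 (adjusted p = 0.00635 from DESeq2 against no change).

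The scaffold genes *pgl-1* and *pgl-3* carried more 22G-RNAs and differed little on the scale of size factors. *pgl-1* (WBGene00003992, chromosome IV, 6974441 to 6977318, minus strand, 2492 bases of exon) had 729, 829 and 758 counts in *lotr-1(sam117)* and 1118, 1233 and 1332 in wild-type. Its normalized counts were 995 ± 11.6 in *lotr-1(sam117)* and 929 ± 20.7 in wild-type (SD, n = 3 each). These did not overlap, being higher in the mutant as for 27.6% of the tested loci, yet the log2 fold change of 0.10 (95% interval -0.03 to 0.23) did not pass the test against no change (DESeq2 adjusted p = 0.256). *pgl-3* (WBGene00003994, chromosome V, 4755979 to 4758587, plus strand, 2285 bases of exon) had 476, 577 and 485 counts in *lotr-1(sam117)* and 722, 813 and 904 in wild-type. It averaged 660 ± 24.2 normalized counts in *lotr-1(sam117)* and 614 ± 3.72 in wild-type (SD, n = 3 each), a log2 fold change of 0.10 (95% interval -0.05 to 0.26, DESeq2 adjusted p = 0.337 against no change). With equal totals both fell, by 0.69 (*pgl-1*, adjusted p = 5.69e-25 from DESeq2) and by 0.68 (*pgl-3*, adjusted p = 3.93e-17 from DESeq2) on the log2 scale, which was near the median of all loci on that scale. With edgeR, and with size factors from autosomal genes or from loci of at least 100 counts, *pgl-1* and *pgl-3* were called higher, at log2 fold changes of 0.16 to 0.17, where 33.9% (edgeR), 22.3% (autosomal genes) and 22.2% (loci of at least 100 counts) of the tested loci were called higher.

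The ratio of *pgl-2* to its paralogs showed the same difference without any scaling. For every 100 counts at *pgl-1*, *pgl-2* had 5.08, 7.24 and 5.28 counts in *lotr-1(sam117)* libraries and 16.4, 17.9 and 15.6 counts in wild-type libraries. The log2 ratio differed by -1.52 between mutant and wild-type, with a pooled SD of 0.211 between libraries. For every 100 counts at *pgl-3* it had 8.81 ± 1.40 counts in *lotr-1(sam117)* and 25.2 ± 2.09 in wild-type (SD, n = 3 each), again a log2 difference of -1.52. Both pairs reached p = 0.1 in an exact two-sided permutation test, the smallest p that 3 libraries against 3 allow, and p = 0.2 when adjusted over the 12 pairs of paralogs compared. In contrast, *pgl-3* had 66.3 ± 2.94 counts per 100 counts of *pgl-1* in *lotr-1(sam117)* and 66.1 ± 1.65 in wild-type (SD, n = 3 each), a difference smaller than the spread between libraries (exact permutation test, p = 1).

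**Figure D3:**
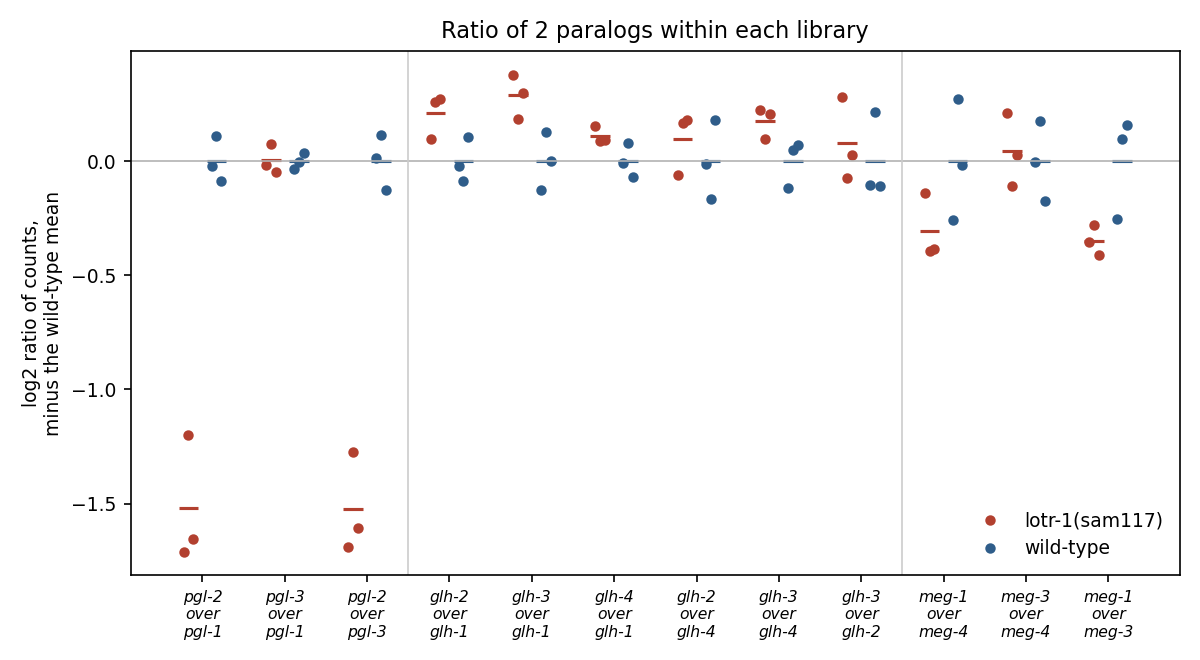
Log2 ratio of the counts of 2 paralogs within each library, minus the mean of the wild-type libraries, for the 12 pairs within the PGL, GLH and MEG families (1 point per library, line at the mean; *lotr-1(sam117)* left, wild-type right). The pairs of *pgl-2* with *pgl-1* and *pgl-3* lie at -1.52, and the other pairs lie between -0.35 (*meg-1* over *meg-3*) and 0.29 (*glh-3* over *glh-1*).

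The GLH genes lie on chromosome I, and 1 of the 4, *glh-1*, was called lower against no change by DESeq2. Over all tested loci 22.7% were called lower, and 27.7% of the tested protein-coding genes of chromosome I. *glh-1* (WBGene00001598, 6854478 to 6857536, plus strand, 2769 bases of exon), which encodes the best studied of these helicases, had 741, 859 and 753 counts in *lotr-1(sam117)* and 1424, 1469 and 1654 in wild-type. Normalized counts were 1010 ± 11.6 in *lotr-1(sam117)* and 1148 ± 56.6 in wild-type (SD, n = 3 each). These did not overlap, being lower in the mutant as for 28.6% of the tested loci. *glh-1* fell by 0.18 on the log2 scale (95% interval -0.31 to -0.05, adjusted p = 0.0184 from DESeq2 against no change). This call was lost with size factors from loci of at least 100 counts (DESeq2 adjusted p = 0.144) or from autosomal genes (DESeq2 adjusted p = 0.166), while with equal totals *glh-1* fell by 0.97 (adjusted p = 5.09e-52 from DESeq2).

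*glh-4* (WBGene00001601, 3727027 to 3731179, plus strand, 3747 bases of exon), the longest of the 4, had 1071, 1185 and 1041 counts in *lotr-1(sam117)* and 1835, 2014 and 2043 in wild-type. It averaged 1417 ± 34.3 normalized counts in *lotr-1(sam117)* and 1490 ± 84.8 in wild-type (SD, n = 3 each), and its log2 fold change was -0.07 (95% interval -0.19 to 0.05, DESeq2 adjusted p = 0.404). *glh-2* (WBGene00001599, 6513928 to 6517507, plus strand, 3218 bases of exon), which like *glh-1* and *glh-4* encodes a helicase with glycine-rich FG repeats, had 169, 219 and 194 counts in *lotr-1(sam117)* and 299, 295 and 380 in wild-type. Its log2 fold change was 0.03 (95% interval -0.23 to 0.28, DESeq2 adjusted p = 0.906). *glh-3* (WBGene00001600, 5792321 to 5795114, minus strand, 2496 bases of exon), whose product lacks these repeats, had 233, 236 and 224 counts in *lotr-1(sam117)* and 315, 388 and 400 in wild-type. Its log2 fold change was 0.10 (95% interval -0.13 to 0.33, DESeq2 adjusted p = 0.542). edgeR called *glh-3* higher against no change (log2 fold change 0.16, edgeR adjusted p = 0.0796), as it did 33.9% of its tested loci. Normalized counts of *glh-2*, *glh-3* and *glh-4* overlapped between genotypes. With equal totals the 3 genes fell by 0.76 (*glh-2*), 0.69 (*glh-3*) and 0.86 (*glh-4*) on the log2 scale, with a DESeq2 adjusted p of 1.67e-08 or lower for each.

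Within libraries, the ratios of the GLH genes differed by less than those of *pgl-2* with its paralogs. *glh-3* had 29.6 ± 1.99 counts per 100 counts of *glh-1* in *lotr-1(sam117)* and 24.2 ± 2.15 in wild-type, and *glh-4* had 140 ± 3.72 in *lotr-1(sam117)* and 130 ± 6.84 in wild-type (SD, n = 3 each). Neither pair overlapped between genotypes (log2 differences 0.29 and 0.11, exact permutation test, p = 0.1 for each, adjusted p = 0.2). The third pair without overlap was *glh-3* over *glh-4* (log2 difference 0.18, exact permutation test, p = 0.1, adjusted p = 0.2). The 3 remaining GLH pairs overlapped, with log2 differences of 0.08 to 0.21. In all, 6 of the 12 pairs within the families did not overlap between genotypes, 2 of 3 in PGL, 3 of 6 in GLH and 1 of 3 in MEG. The pairs of a family share genes, and the share of other pairs of loci without overlap was not computed, so this count has no background. None of the 12 passed the adjustment, which this number of libraries does not allow. Reads that align equally well to 2 paralogs were placed at 1 position at random, so a part of the counts may be exchanged between the *glh* genes or between *meg-3* and *meg-4*, and no genome was used here to measure that part.

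The MEG genes, all on the X chromosome, were the family of the 3 whose summed counts were higher in *lotr-1(sam117)* on both scales. *meg-4* (WBGene00016485, 1682954 to 1686419, plus strand, 2712 bases of exon) had 429, 486 and 484 counts in *lotr-1(sam117)* and 310, 322 and 393 in wild-type, each mutant library lying above each wild-type library. Normalized counts were 602 ± 36.6 in *lotr-1(sam117)* and 258 ± 14.3 in wild-type (SD, n = 3 each). *meg-4* rose by 1.22 on the log2 scale (SE 0.101, 95% interval 1.02 to 1.42, adjusted p = 1.51e-32 from DESeq2 against no change), an estimate above 2-fold that did not pass the test against 2-fold (DESeq2 adjusted p = 0.165). With equal totals it rose by 0.43 (adjusted p = 6.37e-05 from DESeq2 against no change).

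*meg-3* (WBGene00001569, 1986469 to 1989607, minus strand, 2775 bases of exon), whose product acts together with MEG-4, had 127, 115 and 126 counts in *lotr-1(sam117)* and 79, 93 and 89 in wild-type. It averaged 159 ± 19.2 normalized counts in *lotr-1(sam117)* and 66.0 ± 4.63 in wild-type (SD, n = 3 each). It rose by 1.27 on the log2 scale (SE 0.191, 95% interval 0.90 to 1.64, adjusted p = 1.94e-10 from DESeq2 against no change), and by 0.48 with equal totals (DESeq2 adjusted p = 0.0275). For every 100 counts at *meg-4*, *meg-3* had 26.4 ± 2.99 counts in *lotr-1(sam117)* and 25.7 ± 3.12 in wild-type (SD, n = 3 each), a difference smaller than the spread between libraries (exact permutation test, p = 0.7).

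*meg-1* (WBGene00010492, 13927036 to 13929634, minus strand, 2365 bases of exon) had few 22G-RNAs, 21, 20 and 20 counts in *lotr-1(sam117)* and 14, 21 and 21 in wild-type. Normalized counts of 26.3 ± 2.35 in *lotr-1(sam117)* and 14.01 ± 1.95 in wild-type (SD, n = 3 each) gave a log2 fold change of 0.90 with a wide 95% interval of 0.07 to 1.74, and *meg-1* rose by a narrow margin (adjusted p = 0.0831 from DESeq2 against no change). This call was lost in 11 of the 16 alternatives tried, among them leaving out any single library (DESeq2 adjusted p from 0.136 to 0.241), and with equal totals the log2 fold change was 0.11 (DESeq2 adjusted p = 0.864). Its neighbour *meg-2*, which acts redundantly with *meg-1* and lies 906 bases away on the same chromosome, had 32, 29 and 18 counts in *lotr-1(sam117)* and 20, 29 and 29 in wild-type (log2 fold change 0.79, adjusted p = 0.0898 from DESeq2 against no change, and 0.00 with equal totals).

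Summed over each family, normalized counts were 787 ± 49.3 in *lotr-1(sam117)* and 338 ± 9.25 in wild-type for MEG, a ratio of 2.33 (SD, n = 3 each, exact two-sided permutation test, p = 0.1, the smallest possible). Most of the MEG sum lay at *meg-4*, with 602 in *lotr-1(sam117)* and 258 in wild-type. For GLH the sums were 2975 ± 30.6 in *lotr-1(sam117)* and 3161 ± 121 in wild-type, a ratio of 0.941 (exact permutation test, p = 0.1). For PGL they were 1713 ± 31.2 in *lotr-1(sam117)* and 1698 ± 25.8 in wild-type, a ratio of 1.01 (exact permutation test, p = 0.5). Without *pgl-2*, a sum chosen after the data were seen, they were 1655 ± 20.1 in *lotr-1(sam117)* and 1543 ± 19.8 in wild-type, a ratio of 1.07 (exact permutation test, p = 0.1). In CPM the ratios were 1.35 for MEG, 0.545 for GLH and 0.584 for PGL (0.621 without *pgl-2*). Free of any scaling, the MEG counts were 26.1%, 24.8% and 28.5% of the GLH counts in *lotr-1(sam117)* libraries and 10.4%, 10.5% and 11.2% in wild-type libraries, a log2 difference of 1.30 (exact permutation test, p = 0.1). Every mutant library was above every wild-type library. *pgl-1* and *pgl-3* together were 55.6% ± 1.04 of the GLH counts in *lotr-1(sam117)* and 48.9% ± 1.24 in wild-type (SD, n = 3 each, log2 difference 0.19, exact permutation test, p = 0.1). The ratios between families were chosen after the data were seen.

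The families also differ in their chromosomes, the MEG genes being X-linked and the PGL and GLH genes autosomal. Tested protein-coding genes of the X chromosome, 1385 in number, had a median log2 fold change of 0.64, with 27.9% called higher and 12.1% lower against no change. On the autosomes (10890 genes) the median was 0.01, with 17.6% called higher and 24.8% lower. With equal totals the medians were -0.15 on the X chromosome and -0.78 on the autosomes. Of the X-linked genes, 58.6% had a log2 fold change below that of *meg-1*, 70.6% below that of *meg-3* and 68.0% below that of *meg-4*. The 3 MEG genes thus lay above the median of the X-linked genes, with many of these still higher. The part of the chromosome in the MEG result was not tested.

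**Figure D4:**
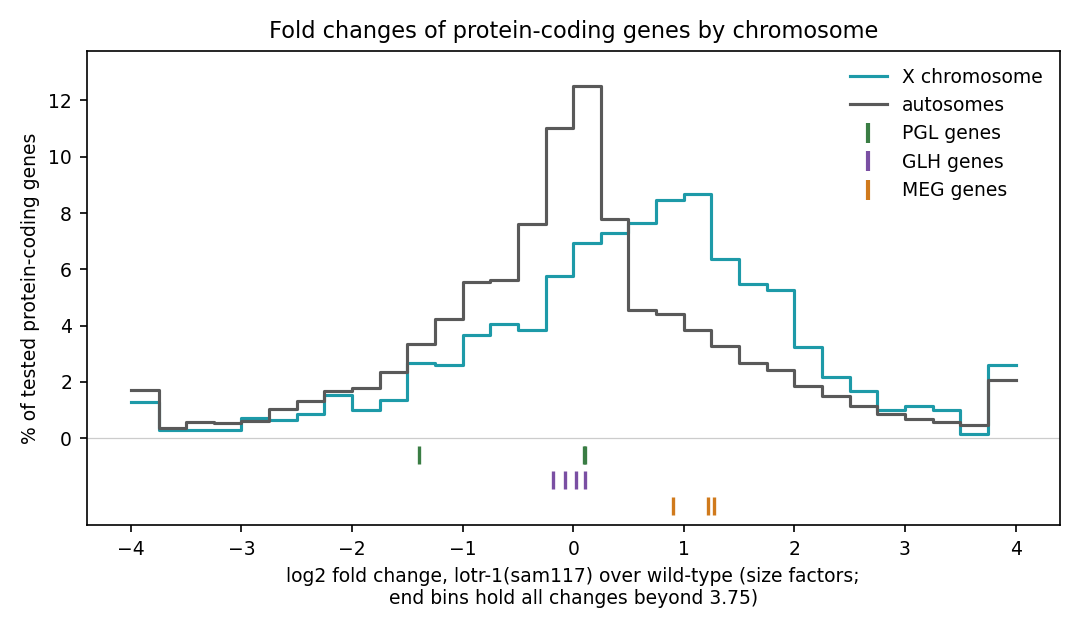
Share of the tested protein-coding genes (%) by log2 fold change, *lotr-1(sam117)* over wild-type with size factors, for the X chromosome (1385 genes) and the autosomes (10890 genes); ticks below mark the PGL, GLH and MEG genes. The X chromosome curve lies to the right (median 0.64 against 0.01 on the autosomes), the MEG ticks fall under its broad top, and *pgl-2* lies on the left flank of the autosomes.

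Markers of cell types were summed as well, although they show only where 22G-RNAs lie. Spermatogenic markers (7 genes, 3 of them at 3 counts or fewer in every library) held 274 to 290 CPM in *lotr-1(sam117)* and 85.4 to 101 in wild-type, and 1243 to 1327 normalized counts in *lotr-1(sam117)* and 229 to 263 in wild-type, higher in the mutant on both scales like *meg-3* and *meg-4*. Nearly all of these counts lay at *spe-41*, a sperm calcium channel gene, with 936 to 1022 counts in *lotr-1(sam117)* and 264 to 343 in wild-type. Of the 4 spermatogenic markers that were tested, DESeq2 called 2 higher and 0 lower against no change, where 20.4% of the tested loci were called higher and 22.7% lower. Oogenic markers (8 genes, 0 at or below 3 counts throughout) held 515 to 540 CPM in *lotr-1(sam117)* and 928 to 985 in wild-type, lower in the mutant like the PGL and GLH genes on that scale. Their normalized sums overlapped, at 2338 to 2440 in *lotr-1(sam117)* and 2427 to 2640 in wild-type. DESeq2 against no change called 1 of the 8 genes higher and 3 lower, where 20.4% of the tested loci were called higher and 22.7% lower. In CPM, 53.9% of all tested loci were lower without overlap and 13.0% were higher. Somatic markers (8 genes, 3 at or below 3 counts throughout) held 37.1 to 43.3 CPM in *lotr-1(sam117)* and 66.7 to 77.0 in wild-type, and their normalized sums overlapped as well (168 to 197 in *lotr-1(sam117)*, 179 to 202 in wild-type). This sum joins genes that moved in opposite directions, since 2 were called higher against no change with size factors, the yolk protein genes *vit-2* (log2 fold change 0.82) and *vit-6* (1.18), and 2 lower, the muscle myosin gene *unc-54* (-4.32) and the neuronal gene *rab-3* (-6.07), which had 3 counts or fewer in each mutant library. Over all tested loci, 20.4% were called higher and 22.7% lower against no change with size factors. With equal totals *vit-2* (0.03) and *vit-6* (0.39) were not called. The part of these cell types in the results was not tested. In whole animals, fewer cells of a type and fewer 22G-RNAs per cell cannot be told apart.

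To compare levels between genes, normalized counts were divided by exon length. In *lotr-1(sam117)* the order per kb of exon was *pgl-1* (399 ± 4.65), *glh-4* (378 ± 9.16), *glh-1* (365 ± 4.19), *pgl-3* (289 ± 10.6), *meg-4* (222 ± 13.5), *glh-3* (120 ± 7.003), *glh-2* (77.5 ± 5.44), *meg-3* (57.3 ± 6.91), *pgl-2* (29.1 ± 5.74) and *meg-1* (11.1 ± 0.992), and no neighbours in this order overlapped between libraries. In wild-type the order was *glh-1* (415 ± 20.4), *glh-4* (398 ± 22.6), *pgl-1* (373 ± 8.31), *pgl-3* (269 ± 1.63), *glh-3* (111 ± 4.88), *meg-4* (95.1 ± 5.28), *pgl-2* (77.0 ± 5.94), *glh-2* (76.2 ± 6.44), *meg-3* (23.8 ± 1.67) and *meg-1* (5.92 ± 0.824) (SD, n = 3). Here *glh-1* overlapped *glh-4*, *glh-4* overlapped *pgl-1*, and *pgl-2* overlapped *glh-2*. In *lotr-1(sam117)* the lowest library of *glh-4* (369.664) was barely above the highest of *glh-1* (369.657).

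Levels ranged widely within each family in both genotypes. *pgl-2*, level with *glh-2* in wild-type, ranked below *meg-3* in *lotr-1(sam117)*, and *meg-4* ranked above *glh-3* in the mutant and below it in wild-type. Among tested protein-coding genes, 55.4% had a lower level per kb than *pgl-2* in *lotr-1(sam117)*, against 72.9% in wild-type. For *meg-4* this share was 92.0% in *lotr-1(sam117)* and 78.7% in wild-type, and for *meg-3* it was 70.7% in *lotr-1(sam117)* and 48.1% in wild-type. It was 93.4% or more in *lotr-1(sam117)* and 92.9% or more in wild-type for *pgl-1*, *pgl-3*, *glh-1* and *glh-4*, which were thus among the more heavily targeted genes of either genotype.

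**Figure D5:**
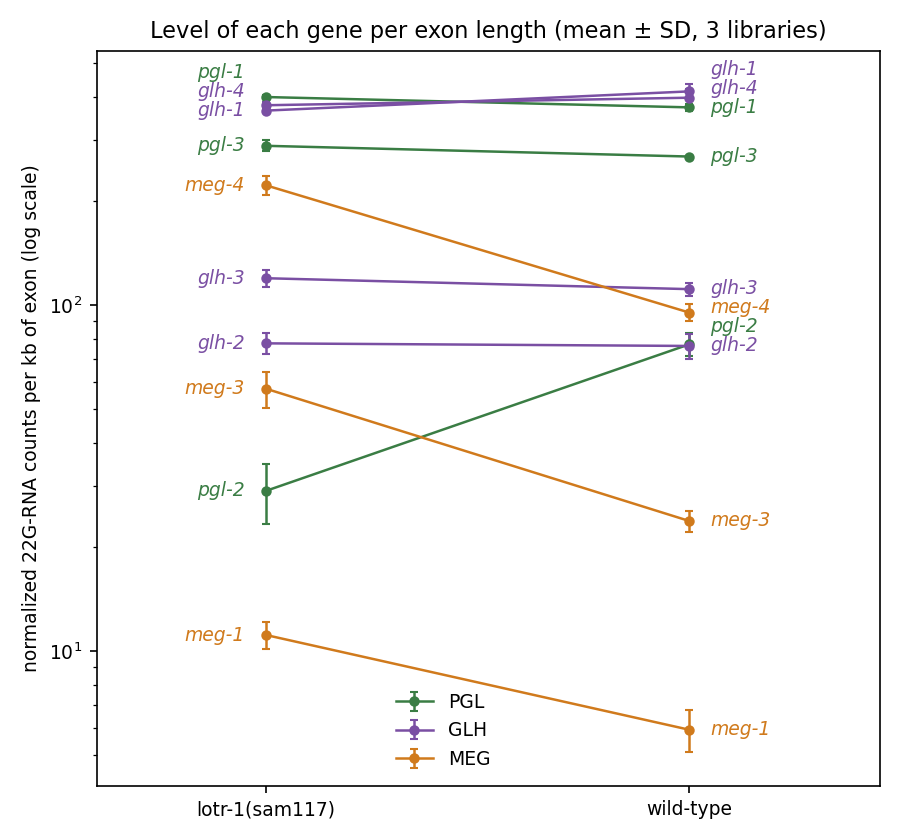
Normalized 22G-RNA counts per kb of exon (log scale) of each gene in *lotr-1(sam117)* (left) and wild-type (right), as the mean ± SD of 3 libraries, with a line joining the values of each gene. The lines of *pgl-2* (29.1 in *lotr-1(sam117)*, 77.0 in wild-type) and of *meg-4* (222 in *lotr-1(sam117)*, 95.1 in wild-type) cross those of other genes, and *pgl-1*, *pgl-3*, *glh-1* and *glh-4* are at the top in both genotypes.

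Other genes of the same granules were examined as lists. Of 12 other P granule genes, 4 were called higher and 2 lower against no change in DESeq2. Over all tested loci these shares were 20.4% and 22.7%. Past 2-fold, 0 of the 12 were called in either direction, against 8.15% of the tested loci higher and 8.14% lower. The median log2 fold change of the 12 genes was 0.12. The largest rise was that of *meg-2* (0.79), and the largest fall that of *gld-3*, a cytoplasmic poly(A) polymerase subunit (-0.48, adjusted p = 0.00798 from DESeq2). With equal totals 11 of the 12 were called lower and 0 higher, where 46.7% of the tested loci were called lower and 9.22% higher. Like *pgl-1*, *pgl-3* and the GLH genes, most of them thus lay on the same side as the median of all loci with equal totals.

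Of 6 DEAD-box helicases related to the GLH proteins, 2 were called higher and 2 lower, against the same shares of 20.4% and 22.7% over all tested loci, with a median log2 fold change of 0.09. The largest rise was that of *cgh-1*, the helicase of translational repression complexes (0.43, adjusted p = 7.94e-05 from DESeq2). The largest fall was that of *smut-1*, a helicase that acts redundantly with MUT-14. *smut-1* had 40, 36 and 31 counts in *lotr-1(sam117)* and 358, 439 and 445 in wild-type, and it fell past 2-fold (log2 fold change -2.76, DESeq2 adjusted p = 1.43e-19), the only one of the 6 to do so. Over all tested loci, 8.14% were called lower past 2-fold. With equal totals all 6 were called lower, where 46.7% of the tested loci were.

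Of 6 listed names for genes of Z granules, the neighbouring granules in which LOTR-1 lies, 5 were found. The missing one, *zsp-1*, is in use as another name for *pid-2*, which is among the 5. Of these, 2 were called higher and 1 lower (20.4% and 22.7% over all tested loci), and the median log2 fold change was 0.10. The largest rise was that of *pid-4*, a partner of PID-2 (0.64, adjusted p = 1.70e-10 from DESeq2), and the largest fall that of *znfx-1*, the helicase that defines these granules (-0.34, adjusted p = 1.25e-07 from DESeq2). With equal totals 4 of the 5 were called lower and 0 higher (46.7% and 9.22% of the tested loci).

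The genes whose counts were most alike those of each family's leading member were found by the Euclidean distance over the 6 libraries in log2(normalized count + 1). For *pgl-1* these were *snpc-3.1* (distance 0.156), C28A5.2 (0.181) and *ama-1* (0.197). For *glh-4* they were R02C2.1 (0.180), *rga-3* (0.204) and *nhr-204* (0.209). For *meg-4* they were ZC15.1 (0.168), R10E4.11 (0.284) and *cutl-10* (0.343), which lie on chromosomes V, III and I. ZC15.1 had 429, 515 and 440 counts in *lotr-1(sam117)* and 306, 327 and 382 in wild-type.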

How the data were processed

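Small RNA libraries (NEXTflex kit) of 3 *lotr-1(sam117)* and 3 wild-type samples were grouped by their labels. The deposited values are whole-number counts of reads per locus, which were not normalized. The authors trimmed reads with cutadapt 2.4, aligned them to WBcel235 with Bowtie 1.2.2 (1 mismatch allowed, multi-mapping reads placed at 1 random best position) and counted 22-base reads starting with G and antisense to exons of Ensembl release 96, or to transposons, with featureCounts 1.6.2. Whether PCR duplicates were collapsed, and how reads in overlapping genes were assigned, is not given in the sources used here. Counting used strand, so genes on opposite strands do not share reads.

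Here, gene names, exon lengths and coordinates (1-based) came from Ensembl release 115 (WBcel235 as well). Genotypes were compared over the whole table with DESeq2 1.42.0 (R 4.3.3) against an absolute log2 fold change of 1 (2-fold) and against no change, with Benjamini-Hochberg adjustment over all tested loci and calls at an adjusted p below 0.1. All 10 genes passed the independent filter. Fold changes, unshrunken, have *lotr-1(sam117)* on top. Alternatives were scaling by totals, TMM, other reference loci for size factors, other low-count filters, edgeR 4.0.16, a 5% limit, a replicate block and leaving out each library. Family sums and paralog ratios were compared by exact two-sided permutation tests. The DESeq2 fit was tested on simulated counts, and the permutation test (Python 3.11.15) on values with known answers. The members, gene lists and markers were chosen with earlier results of these data known. Named were all 10 members, *lotr-1*, the largest rise and fall of each list, genes overlapping a member on the same strand, and the 3 protein-coding genes closest to each family's most abundant member. *spe-41*, *vit-2*, *vit-6*, *unc-54* and *rab-3* were named after their values were seen.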

Additional observations from a re-analysis of the deposited data

How the results depend on the processing

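Of the 16 alternatives, *pgl-2* stayed called lower and *meg-3* and *meg-4* stayed called higher against no change in all 16, with log2 fold changes of -2.19 to -1.30 (*pgl-2*), 0.48 to 1.37 (*meg-3*) and 0.43 to 1.29 (*meg-4*). Equal totals gave 498 loci higher and 2331 lower past 2-fold (952 and 951 with size factors) and 1297 and 6576 against no change (2726 and 3039). They made 7 members called lower against no change and 1 past 2-fold, reversed *pgl-1* (-0.69), *pgl-3* (-0.68), *glh-2* (-0.76), *glh-3* (-0.69) and the PGL total (-0.78), and moved the GLH total to -0.87 and the MEG total to 0.43. *glh-2*, near 0 in size, was also -0.022 with TMM, -0.0043 without *lotr-1(sam117)* replicate 2 and -0.059 without wild-type replicate 2, and its range over the left-out libraries was -0.059 to 0.084.

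Past 2-fold, 1 member (*meg-4*) was called higher with size factors from loci of at least 100 counts, with those from autosomal protein-coding genes (chosen after the data were seen) and with the filter of 10 counts in 3 libraries, where 8.63%, 8.66% and 10.5% of the tested loci were called higher. With edgeR, and with DESeq2 against no change and a limit of 2-fold on the estimate, 2 members were called higher and 1 lower. edgeR gave 1253 loci higher and 1366 lower of 8927, and the other form 1935 and 1937 of 13386. Against no change, 5 members were called higher and 1 lower with either of these sets of size factors (22.2% and 22.3% of the tested loci higher, 21.6% and 21.5% lower), and 6 higher with edgeR, the MEG genes, *pgl-1*, *pgl-3* and *glh-3* (33.9% of the tested loci higher). The cause was not tested. Without *pgl-2*, also chosen after the data were seen, the PGL total was 0.10.

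Leaving out each library in turn gave 829 to 852 loci higher and 811 to 860 lower past 2-fold. The PGL total ranged from -0.0012 (without *lotr-1(sam117)* replicate 2) to 0.025, the GLH total from -0.11 to -0.06 and the MEG total from 1.17 to 1.26. Log2 ratio differences ranged from -1.68 to -1.43 (*pgl-2* to *pgl-1*) and from -1.65 to -1.44 (*pgl-2* to *pgl-3*). Those near 0 changed sign, namely *pgl-3* to *pgl-1* (-0.033 to 0.028), *glh-3* to *glh-2* (-0.024 to 0.18) and *meg-3* to *meg-4* (-0.044 to 0.13). They were negative without *lotr-1(sam117)* replicate 2 (-0.033) or wild-type replicate 1 (-0.014) for *pgl-3* to *pgl-1*, without *lotr-1(sam117)* replicate 1 (-0.024) for *glh-3* to *glh-2*, and without *lotr-1(sam117)* replicate 1 (-0.042) or wild-type replicate 3 (-0.044) for *meg-3* to *meg-4*.

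Deviations of same-numbered libraries correlated at 0.00013, -0.0091 and 0.02 over 5872 loci, so no pairing by replicate number was seen. These correlations cannot tell whether same-numbered samples were grown or prepared together. With the replicate block 834 loci were higher and 822 lower past 2-fold. Against no change 2 members were higher and 2 lower, where 2153 loci were higher and 2715 lower of 11341 tested. The call of *meg-1* was lost with the block (adjusted p = 0.192 from DESeq2 against no change). Not every library correlated best with its own number.

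Levels per possible 22G-RNA start were not run, since no genome was used here. The totals hold 22G-RNAs only, counts at *meg-1* were too low to give its change with precision, and 3 libraries a genotype cannot reach p below 0.1 in a permutation test.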
